A study of Mus musculus with 24 samples.

Results

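The collagen genes of the mouse lumbar spinal cord were taken as every gene symbol of the count table made of Col, a type number, the letter a and a chain number, which gave 44 of 55418 genes. All 44 passed the filter on low counts, among 25372 genes tested. The chains fall into 11 fibrillar chains, 6 type IV chains, 2 multiplexins, 9 FACIT chains (fibril-associated collagens with interrupted triple helices), 6 type VI chains, 3 network chains, 4 transmembrane chains and 3 others. Bulk RNA was sequenced from the lumbar cords of C57BL/6J mice aged 8 to 10 weeks at the start, 3 in each of 8 groups. The groups crossed genotype (a conditional Chrna7 knockout in myeloid cells, or wild-type), treatment (paclitaxel or vehicle) and sex. Paclitaxel, a taxane used in chemotherapy, was dissolved in Kolliphor, ethanol and water and injected 4 times, every other day, with 1 mg for each kg of weight. Cords were collected on day 7, counted after the first injection. The Cre line that drives the knockout, and whether wild-type mice carry a floxed allele or Cre, are not given in the sources used here. One cord, wild-type female paclitaxel replicate 3 (library 23), resembled sensory ganglion more than cord in its marker genes and is given apart, which left 23 cords and only 2 wild-type paclitaxel females.

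Collagens are extracellular proteins built of 3 chains wound into a triple helix. Fibrillar chains such as those of types I and III form the tensile fibrils of the meninges, nerve roots and vessel walls. Type IV chains form the sheet of the basement membrane around vessels and under the pia, where type XV and XVIII chains and laminins also lie. In bulk tissue, fewer cells of a type and less RNA per cell cannot be told apart.

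Libraries held 88812295 to 112158154 counts (median 94343662), and collagen genes took 0.0772 to 0.102% of them in the 23 cords. Chrna7, the targeted gene, did not separate the genotypes: it averaged 12.6 ± 1.61 CPM in 12 knockout cords and 13.6 ± 1.79 CPM in 11 wild-type cords (SD; log2 fold change -0.11, edgeR adjusted p = 1). Reads of whole cord do not check a deletion confined to myeloid cells. Each library was 1 mouse. Libraries numbered 1 to 12 were the female vehicle and male paclitaxel cords. Libraries numbered 13 to 24 were the male vehicle and female paclitaxel cords, with library 23 among them. A difference in paclitaxel response between the sexes, or a paclitaxel difference within 1 sex, therefore cannot be told apart from library number. The labels do not say whether the numbers follow the order of processing.

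The promoters of 4 chains are shown because these chains belong to the 3 pairs with the highest correlation among the 11 pairs compared over cords, Col1a1 with Col1a2, Col4a1 with Col4a2 and Col1a1 with Col3a1. RefSeq windows of 300 bases, 250 before and 50 after the start, were found for 35 of the 44 genes in 38 windows of GRCm38.p6. Capitals mark the CCAAT box (letters CCAAT), the TATA box (letters TATAAA) and the GC box (letters GGGCGG), each searched on both strands, so that a reverse complement is in capitals too. In these windows no match of one overlapped a match of another.
Col4a1, chr8:11312777-11313076, minus strand: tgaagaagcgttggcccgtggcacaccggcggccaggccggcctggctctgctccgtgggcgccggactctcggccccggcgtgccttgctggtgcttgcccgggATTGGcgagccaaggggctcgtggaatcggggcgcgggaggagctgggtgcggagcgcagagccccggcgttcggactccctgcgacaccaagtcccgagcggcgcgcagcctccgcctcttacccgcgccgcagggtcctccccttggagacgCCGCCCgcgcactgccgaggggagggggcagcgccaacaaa
Col4a2, chr8:11312555-11312854, plus strand: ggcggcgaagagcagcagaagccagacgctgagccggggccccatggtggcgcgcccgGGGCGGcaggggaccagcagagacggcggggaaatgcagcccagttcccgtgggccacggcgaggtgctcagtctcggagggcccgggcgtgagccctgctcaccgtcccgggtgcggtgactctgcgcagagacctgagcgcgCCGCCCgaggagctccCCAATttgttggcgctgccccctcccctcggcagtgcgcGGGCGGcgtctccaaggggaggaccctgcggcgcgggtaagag
Col1a2, chr6:4505368-4505667, plus strand: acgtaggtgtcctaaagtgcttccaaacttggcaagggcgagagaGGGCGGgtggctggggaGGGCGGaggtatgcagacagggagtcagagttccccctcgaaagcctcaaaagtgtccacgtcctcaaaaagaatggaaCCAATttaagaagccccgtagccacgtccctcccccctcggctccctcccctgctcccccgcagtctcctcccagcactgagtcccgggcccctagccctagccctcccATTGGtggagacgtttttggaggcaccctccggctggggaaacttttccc
Col3a1, chr1:45311288-45311587, plus strand: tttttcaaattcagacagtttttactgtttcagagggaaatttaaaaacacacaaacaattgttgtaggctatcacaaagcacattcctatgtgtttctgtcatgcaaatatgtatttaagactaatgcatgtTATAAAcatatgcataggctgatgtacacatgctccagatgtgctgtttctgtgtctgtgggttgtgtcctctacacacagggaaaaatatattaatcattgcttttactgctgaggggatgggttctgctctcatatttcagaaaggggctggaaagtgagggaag

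Col4a1 and Col4a2 lie head to head, and their RefSeq starts are 21 bases apart, with the start of Col4a1 on the far side of that of Col4a2, so the first bases of the genes overlap on opposite strands. Their windows share 78 bases. Each window held 1 CCAAT match and no TATAAA, and GGGCGG was matched 1 time in Col4a1 and 3 times in Col4a2. The Col4a1 match of GGGCGG and the last one of Col4a2 are the same site in the shared bases, read on opposite strands. Col1a2 held 2 CCAAT and 2 GGGCGG matches, and Col3a1 held 1 TATAAA and neither of the others. The GC content was 74% in the Col4a1 window, 73.7% in Col4a2, 61% in Col1a2 and 37.7% in Col3a1. Among the 38 collagen windows 60.5% held GGGCGG, against 35.7% of all 32851 promoter windows, while CCAAT was in 34.2% against 37.4% and TATAAA in 13.2% against 13.6%. Collagen windows had a median GC content of 59.9% and all windows 52.7%. These matches describe letters only.

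The levels of the collagen genes in the 23 cords spanned more than 2 orders of magnitude. Levels are CPM, read counts scaled to a common library size with TMM factors, and genes are compared only as CPM per kilobase of exon. Col16a1, a FACIT chain, was highest at a median of 13.7 CPM per kilobase (10.2 to 15.96), followed by Col11a2 at 10.96 and the basement membrane chain Col4a2 at 9.60. Col11a1, which with Col11a2 makes the minor fibrillar type XI, had 8.77, and Col6a1, a chain of the beaded type VI microfibrils, had 7.71. Of the marker chains, Col4a1 ranked 7 at 5.95 CPM per kilobase, Col1a2 ranked 13 at 3.04 and Col1a1 ranked 17 at 2.27. Col3a1, the chain of type III fibrils in skin and vessel walls, ranked 21 at 1.43. Thus the markers of meninges and vessels were present in every cord but did not head the list, and bulk counts do not say which cells held them. The lowest were Col6a5 at 0.0873, Col17a1 at 0.0433 and Col10a1 at 0.0342 CPM per kilobase. Col10a1, the collagen of hypertrophic cartilage, had 0 counts in 1 cord and at most 22 in another. Neighbours in this order mostly overlapped: the upper gene was higher in all 23 cords in only 2 of 43 neighbouring pairs.

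**Figure D1:**
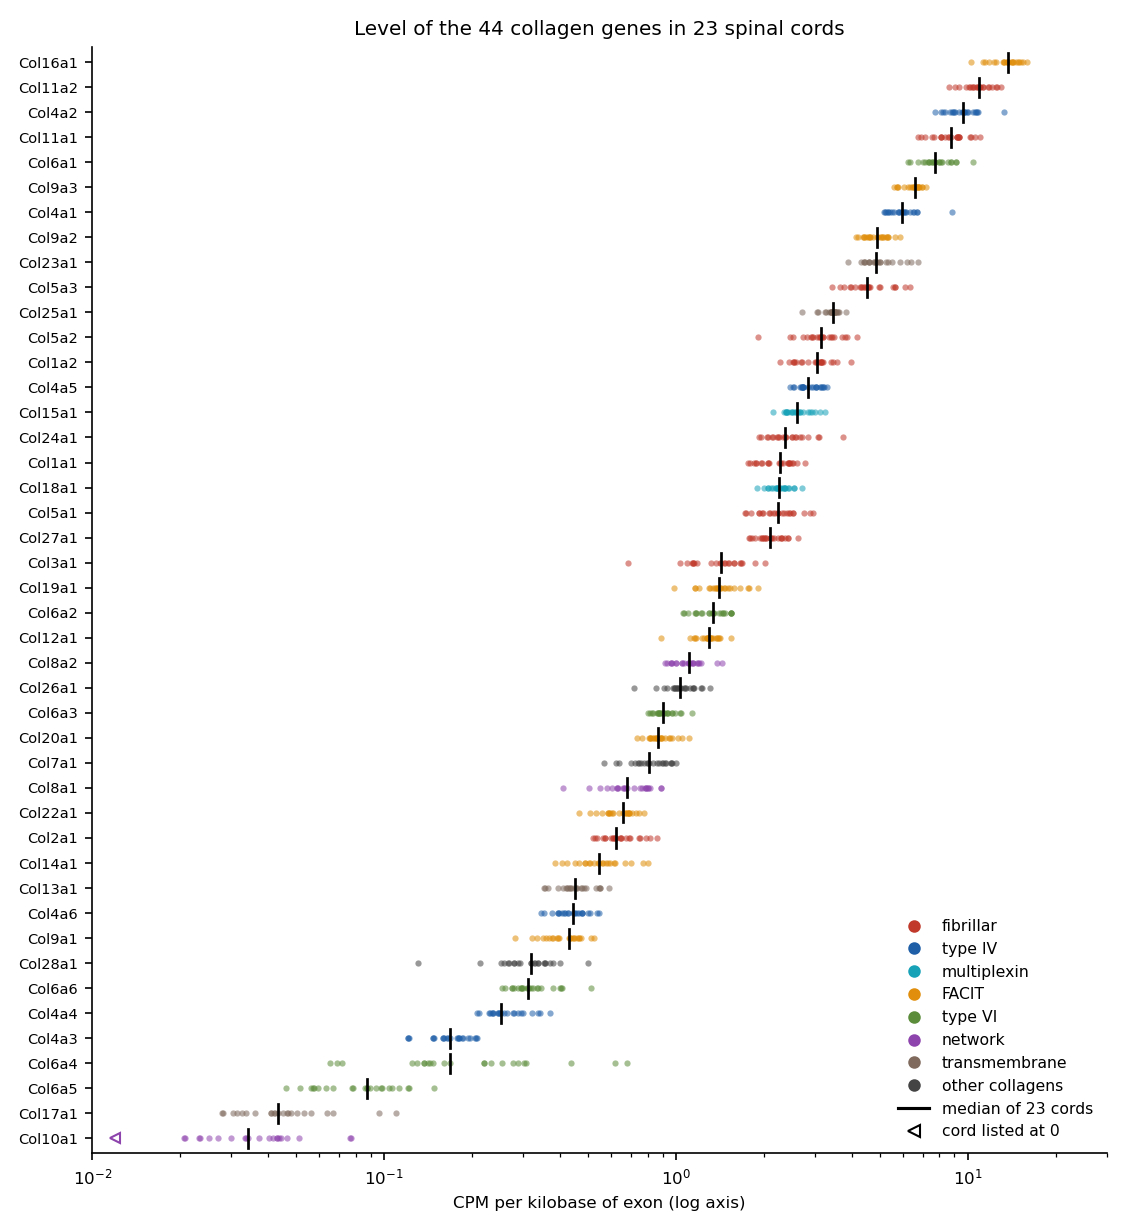
Level of each collagen gene in CPM per kilobase of exon on a log axis, with 1 point for each of 23 cords, coloured by class, and a bar at the median. Col16a1 heads the order at a median of 13.7, and Col10a1, at 0.0342, is last; the triangle marks 1 cord listed at 0.

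The 11 fibrillar chains held a median 34.6% of the summed CPM per kilobase of all collagen genes (32.5 to 36.7% over cords). FACIT chains held 25.3% (23.1 to 27.8%) and the 6 type IV chains 16% (14.8 to 19.4%). Type VI chains followed with 8.95%, transmembrane chains with 7.31% and multiplexins with 4.12%. The ratio of fibrillar to type IV chains ranged from 1.76 to 2.39 over cords. It was 2.09 ± 0.159 in 11 paclitaxel cords and 2.21 ± 0.127 in 12 vehicle cords (SD), and 2.11 ± 0.170 in 12 knockout cords and 2.19 ± 0.128 in 11 wild-type cords. Both pairs of ranges overlapped. The ratio of Col1a1, Col1a2 and Col3a1 to Col4a1 and Col4a2 had a wider spread, from 0.309 to 0.638, with 0.393 ± 0.0539 in paclitaxel cords and 0.459 ± 0.0804 in vehicle cords, whose ranges also overlapped. The lowest ratio of all fibrillar to type IV chains, 1.76, belonged to knockout female paclitaxel replicate 1, whose type IV sum of 26.2 CPM per kilobase was the highest of the cords. No test was made of sums over chains.

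The spread of single genes over cords was like that of other genes, with a median coefficient of variation of 13.4% over the collagen genes and 13.7% over all tested genes. Col25a1 (6.71%), a transmembrane chain of neurons, and Col9a3 (6.73%) varied least. Col6a4 varied most, with 68.8%: it ranged from 0.559 to 5.78 CPM, and its 2 highest cords were knockout male paclitaxel replicate 2 (5.78 CPM) and knockout male vehicle replicate 3 (5.28 CPM). No group was uniformly high in Col6a4. In mouse it encodes a type VI chain, and 3.39% of its exon bases are shared with other annotated genes. Col3a1 had a coefficient of 21.4% and ranged from 6.73 to 19.8 CPM.

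Joint variation over the 23 cords was measured on log2(CPM + 0.1) for 11 chosen pairs, 9 of chains of 1 collagen type and 2 across types (Col1a1 with Col3a1 and with Col4a1), with permutation p values (100000 resamples, two-sided, Benjamini-Hochberg over the 11). Col1a1 and Col1a2, the 2 chains of type I collagen, had r = 0.83 (Spearman rho = 0.76, permutation adjusted p = 5.5e-05, n = 23). Of all 25371 other tested genes, Col1a2 had the highest correlation with Col1a1. Col4a1 and Col4a2, the 2 chains of the common type IV trimer, had r = 0.81 (rho = 0.72, permutation adjusted p = 5.5e-05), and Col4a2 likewise ranked 1 for Col4a1. The raw p of both, 1e-05, is the smallest these resamples can give. Leaving out the 2 cords farthest from the median, r was 0.81 for the type I pair and 0.63 for the type IV pair; for the type IV pair the 2 cords were knockout female vehicle replicate 1 and knockout female paclitaxel replicate 1, of which the paclitaxel cord was highest in both chains. With library 23 added, r of the type IV pair was 0.474 (permutation adjusted p = 0.0371).

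**Figure D2:**
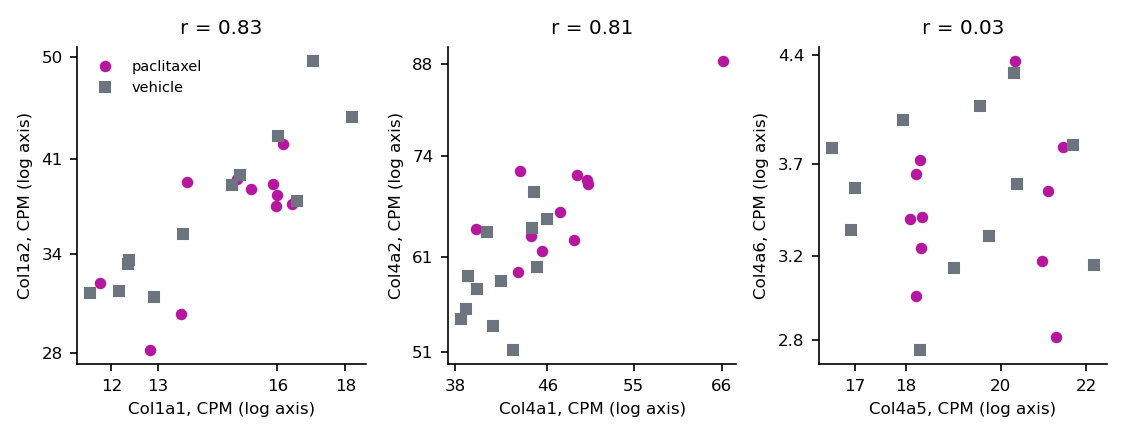
CPM of 3 pairs of chains in 23 cords on log axes, with circles for paclitaxel and squares for vehicle. The type I pair (r = 0.83) and the Col4a1 and Col4a2 pair (r = 0.81) vary together over the 23 cords, and the Col4a5 and Col4a6 pair (r = 0.03) does not.

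Col1a1 and Col3a1, fibrillar chains of types I and III, had r = 0.74 (rho = 0.81, permutation adjusted p = 0.00011). Col9a2 with Col9a3, chains of the FACIT type IX, had r = 0.55, Col8a1 with Col8a2 of the type VIII network r = 0.54, and Col1a1 with Col4a1 r = 0.51 (permutation adjusted p = 0.0161 each). The type VI pairs did not pass, with r = 0.44 for Col6a1 and Col6a2 (permutation adjusted p = 0.0551) and r = 0.33 for Col6a1 and Col6a3 (permutation adjusted p = 0.155). Nor did Col5a1 with Col5a2 (r = 0.26, permutation adjusted p = 0.255) or Col4a3 with Col4a4 (r = 0.39, permutation adjusted p = 0.088). Col4a5 and Col4a6, which also lie head to head, on the X chromosome, had r = 0.03 (permutation adjusted p = 0.893). Within groups, that is with the 8 group means removed, the type V pair reached r = 0.59 and the type VI pairs 0.57 and 0.54. The permutation moved these values freely across groups, although removing the means ties the values of a group together. Its p values would be too small, so none is given. Other collagen pairs, with no test, had an r as high: Col7a1 with Col16a1 0.878, Col11a2 with Col16a1 0.862, Col5a3 with Col24a1 0.853, Col5a2 with Col6a1 0.852, Col5a3 with Col11a1 0.85 and, within type V, Col5a1 with Col5a3 0.831. Col5a2 with Col5a3 had 0.493 and the type XI pair Col11a1 with Col11a2 0.593. Cords share depth and dissection, so these values describe joint variation between cords and not between cells.

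The 10 genes most correlated with Col1a1 were listed among 15869 genes with a mean of at least 1 CPM. They were Col1a2, Islr (r = 0.81), Pcolce (0.80), Synpo2 (0.79), Serping1 (0.77), Bmp7 (0.76), Cpxm2, Sema3b (0.76 each), Matn2 (0.75) and Col3a1 (0.74). Islr is on the fibroblast marker list, and Pcolce enhances the cleavage of the procollagen C-propeptide. Those most like Col4a1 were Col4a2, Col15a1 (0.74), Csad (0.73), Eogt (0.71), Evc (0.71), Gfm2 (0.69), Ttll9 (0.69), Gpr179 (0.68), Lama1 (0.68) and Tars2 (0.68). Col15a1 is a multiplexin of basement membranes and Lama1 a laminin chain. No p is given for these, since the genes were picked for the value.

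Paclitaxel was set against vehicle to see whether collagen expression differs on day 7 of treatment. Over both genotypes and sexes no collagen gene was called at an edgeR quasi-likelihood adjusted p under 0.05, among 5 of 25372 genes called (0.0197%). DESeq2 called 2, Col4a2 and Col2a1, among 167 genes (0.658%). At an unadjusted p under 0.05 there were 6 collagen genes (13.6%), all higher under paclitaxel, against 10.2% of all genes. Of the 44 genes 31 had a positive fold change (median log2 fold change 0.05), against 52.9% of all genes (median 0.01). The network chains were 0 of 3 positive, type IV chains 5 of 6 and fibrillar chains 9 of 11.

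Col4a2 had 59.4 to 88.5 CPM (median 66.5) in 11 paclitaxel cords, against 51.2 to 69.0 CPM (median 58.6) in 12 vehicle cords. It had the smallest p of the collagen genes, with means of 68.3 ± 7.92 and 59.4 ± 5.45 CPM (SD), a log2 fold change of 0.20 ± 0.05 (SE) and an edgeR adjusted p of 0.176. All 11 paclitaxel cords lay above the vehicle median, but the ranges overlapped. Col4a1 had 39.7 to 66.2 CPM (median 47.2) in paclitaxel cords, against 38.5 to 45.9 CPM (median 41.5) in vehicle cords. Its log2 fold change was 0.19 ± 0.06 (edgeR adjusted p = 0.261). Both chains were highest in the same cord, knockout female paclitaxel replicate 1, with 88.5 CPM of Col4a2 and 66.2 CPM of Col4a1. Col2a1, the fibrillar chain of cartilage, had 4.96 to 7.96 CPM (median 6.41) under paclitaxel, against 4.82 to 7.28 CPM (median 5.59) under vehicle (log2 fold change 0.22 ± 0.06, edgeR adjusted p = 0.184).

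The type I and III chains showed smaller differences. Col1a1 averaged 14.8 ± 1.57 CPM in 11 paclitaxel cords and 14.4 ± 2.20 CPM in 12 vehicle cords (SD; log2 fold change 0.04, edgeR adjusted p = 0.867). Col1a2 averaged 36.6 ± 4.37 CPM under paclitaxel and 37.5 ± 5.86 CPM under vehicle (-0.04, 0.917). Col3a1 averaged 13.1 ± 3.15 CPM under paclitaxel and 14.2 ± 2.76 CPM under vehicle (-0.11, 0.825), and Col6a1 35.03 ± 5.28 CPM under paclitaxel and 33.9 ± 3.08 CPM under vehicle (0.07, 0.771). For each of the 4 the paclitaxel and vehicle ranges overlapped over most of their length.

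In wild-type cords alone no gene of any kind was called by edgeR (0%), and DESeq2 called 4 genes (0.0158%), none of them collagen. Of the 44 collagen genes 28 had a positive fold change, against 51.9% of all genes. Col9a2, a FACIT chain, averaged 16.5 ± 1.53 CPM in 5 paclitaxel cords and 13.96 ± 0.961 CPM in 6 vehicle cords (SD; log2 fold change 0.22, edgeR adjusted p = 0.528), followed by Col2a1 (0.30, 0.528) and Col4a2 (0.19, 0.531). At an unadjusted p there were 4 collagen genes (9.09%), against 7.97% of all genes. In knockout cords no collagen gene was called by edgeR, among 6 genes (0.0236%), or by DESeq2, among 137 (0.54%). There 34 had a positive fold change, against 50.6% of all genes, and 2 were at an unadjusted p under 0.05 (4.55%, against 11.3% of all). These were Col4a2, with 71.6 ± 9.05 CPM in 6 paclitaxel and 61.8 ± 5.48 CPM in 6 vehicle cords (0.21, edgeR adjusted p = 0.257), and Col4a1, with 50.4 ± 8.14 CPM under paclitaxel and 42.4 ± 3.15 CPM under vehicle (0.25, 0.271). Col2a1 had the third smallest p (0.15, 0.504). For the difference between the knockout and wild-type responses, the genotype by treatment interaction, no gene at all was called (0%) by edgeR or DESeq2, and 26 collagen genes had a positive one, against 48.3% of all genes. There 1 collagen gene, Col9a2, had an unadjusted p under 0.05 (2.27%, against 8.41% of all genes), with an interaction of -0.26 ± 0.09 (SE, edgeR adjusted p = 0.512). Col23a1 (0.25, 0.605) and Col3a1 (0.46, 0.642) followed.

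Within each genotype and sex, 6 chains were followed in all 8 groups (3 cords each, 2 in wild-type paclitaxel females), as a description with no test. Groups of so few cords often separate by chance, and the share of all genes that separate was not counted. Col1a1 averaged 15.8 ± 0.773 CPM under paclitaxel and 12.5 ± 0.329 CPM under vehicle in knockout males, and 14.5 ± 2.401 CPM under paclitaxel and 14.9 ± 2.39 CPM under vehicle in knockout females (SD). In wild-type mice it averaged 14.2 ± 1.73 CPM under paclitaxel and 13.4 ± 1.72 CPM under vehicle in males, and 14.4 ± 1.24 CPM under paclitaxel and 16.7 ± 1.74 CPM under vehicle in females. Its groups were separated in knockout males and overlapped in the others.

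Col1a2 averaged 38.4 ± 0.955 CPM under paclitaxel and 32.7 ± 1.285 CPM under vehicle in knockout males, and 36.2 ± 3.58 CPM under paclitaxel and 37.4 ± 5.61 CPM under vehicle in knockout females. Wild-type males had 36.5 ± 7.37 CPM under paclitaxel and 35.5 ± 4.12 CPM under vehicle, and wild-type females 34.4 ± 5.94 CPM under paclitaxel and 44.3 ± 5.34 CPM under vehicle. The chain thus lay higher under paclitaxel in every knockout male and lower in both wild-type paclitaxel females, and overlapped elsewhere. Col3a1 had 14.95 ± 0.551 CPM under paclitaxel and 11.8 ± 1.45 CPM under vehicle in knockout males, and 13.8 ± 4.15 CPM under paclitaxel and 14.8 ± 2.79 CPM under vehicle in knockout females. In wild-type males it had 10.75 ± 3.825 CPM under paclitaxel and 13.6 ± 2.16 CPM under vehicle, and in wild-type females 13.1 ± 2.615 CPM under paclitaxel and 16.7 ± 2.96 CPM under vehicle. Only the knockout males were separated, and the share of all genes that separate was not counted for any of these groups.

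Col4a1 and Col4a2 had the higher mean under paclitaxel in all 4 combinations of genotype and sex. Other type IV chains did not: Col4a5 averaged 18.97 CPM under paclitaxel and 19.43 CPM under vehicle in knockout males, and Col4a6 3.288 CPM under paclitaxel and 3.944 CPM under vehicle in wild-type females. Col4a1 averaged 47.55 ± 2.29 CPM under paclitaxel and 41.85 ± 2.86 CPM under vehicle in knockout males, and 53.2 ± 11.7 CPM under paclitaxel and 42.99 ± 3.96 CPM under vehicle in knockout females. In wild-type males it had 43.8 ± 4.48 CPM under paclitaxel and 40.5 ± 0.692 CPM under vehicle, and in wild-type females 46.7 ± 3.14 CPM under paclitaxel and 42.3 ± 3.12 CPM under vehicle. The knockout males were separated and the others overlapped, again with no share of all genes to set beside it.

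Col4a2 averaged 66.1 ± 4.17 CPM under paclitaxel and 62.1 ± 5.99 CPM under vehicle in knockout males, and 76.98 ± 9.95 CPM under paclitaxel and 61.5 ± 6.24 CPM under vehicle in knockout females. In wild-type males it had 62.25 ± 2.58 CPM under paclitaxel and 58.3 ± 5.29 CPM under vehicle, and in wild-type females 67.5 ± 5.504 CPM under paclitaxel and 55.5 ± 4.35 CPM under vehicle. Here both female genotypes were separated and both male ones overlapped. Groups of so few cords often separate by chance, and the share of all genes was not counted.

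Col6a1 averaged 33.85 ± 0.9998 CPM under paclitaxel and 35.6 ± 3.83 CPM under vehicle in knockout males, and 35.6 ± 3.98 CPM under paclitaxel and 34.3 ± 3.82 CPM under vehicle in knockout females. In wild-type males it had 30.96 ± 5.76 CPM under paclitaxel and 32.97 ± 2.24 CPM under vehicle, and in wild-type females 42.03 ± 5.099 CPM under paclitaxel and 32.6 ± 3.07 CPM under vehicle. Only the wild-type females were separated, with paclitaxel higher, and the share of all genes that separate there was not counted.

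**Figure D3:**
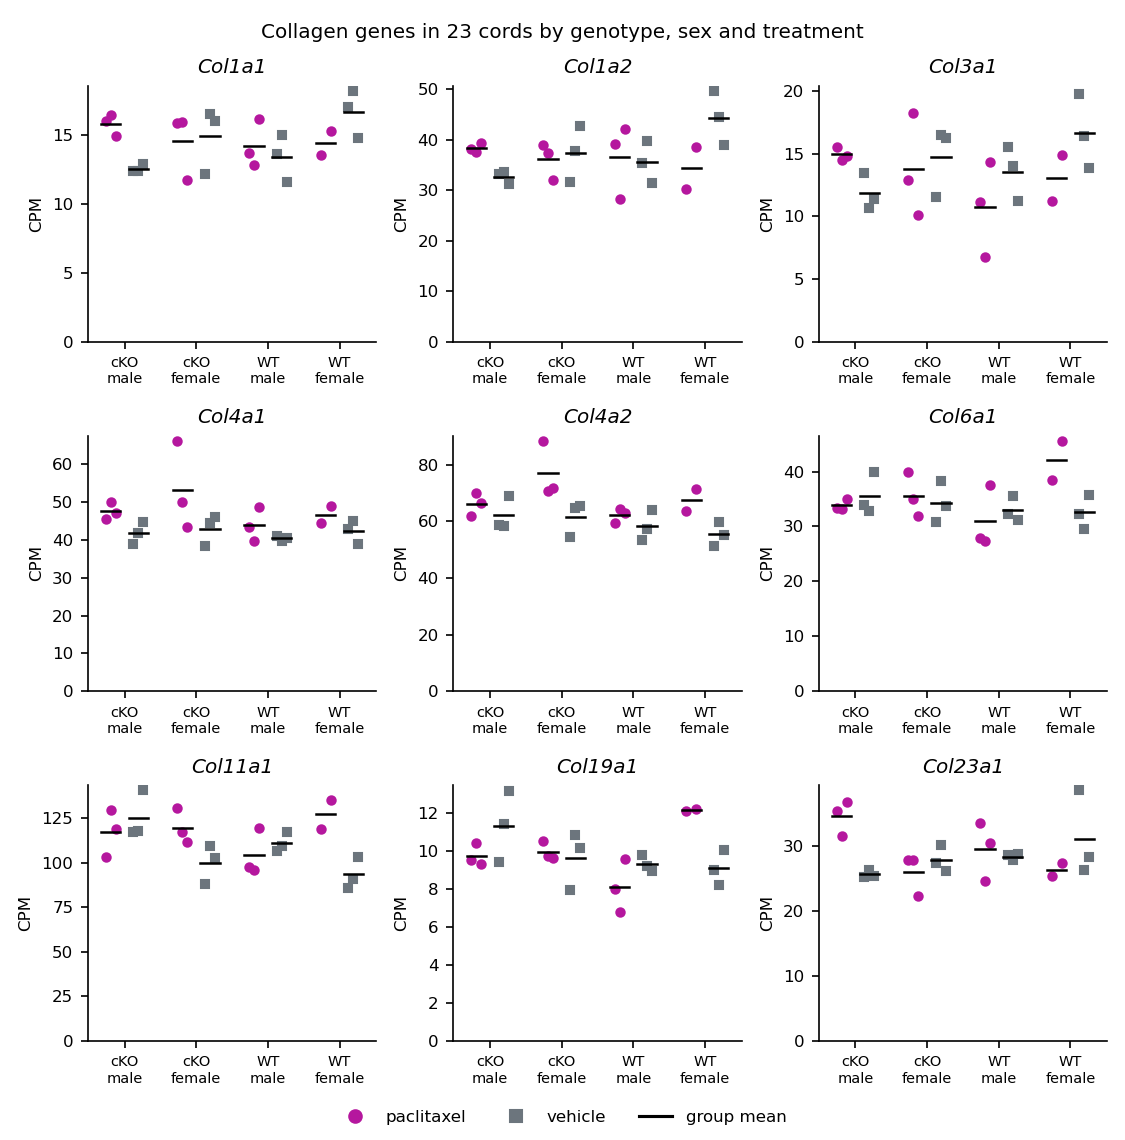
CPM of 9 collagen genes in 23 cords, from an axis that starts at 0, by genotype and sex, with paclitaxel circles left of vehicle squares and a bar at each group mean. Col4a1 and Col4a2 reach their highest values, 66.2 and 88.5 CPM, in 1 paclitaxel cord of a knockout female, and Col11a1 is higher under paclitaxel in both female groups but not in the male groups.

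Marker genes of vessel cells are given beside the type IV chains. Over all cords none of 12 endothelial markers was called for paclitaxel, 3 had an unadjusted p under 0.05 and 11 had a positive fold change (median log2 fold change 0.12). In knockout cords 11 of the 12 were positive (median 0.32), with 9 at an unadjusted p, and in wild-type cords 2 of 12 (median -0.04), with 1. In males 12 of 12 were positive (median 0.37) and in females 4 of 12 (median -0.08), while Col4a2 had 0.09 in males and 0.30 in females. Of 12 mural markers 10 were positive in knockout cords and 1 in wild-type cords, and 10 in males and 1 in females. The 12 endothelial markers summed to 363 to 570 CPM in paclitaxel cords and 297 to 470 CPM in vehicle cords. The 12 mural markers summed to 333 to 423 CPM in paclitaxel cords and 298 to 432 CPM in vehicle cords. The 15 meningeal and perivascular fibroblast markers summed to 131 to 290 CPM in paclitaxel cords and 159 to 282 CPM in vehicle cords. No marker of these lists was at 0 in the 23 cords, and their part in the collagen values was not tested.

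Sex was examined because the design crosses it with treatment. Between males and females over all cords no collagen gene was called by edgeR, among 233 genes (0.918%), and DESeq2 called Col5a1 among 583 genes (2.3%). At an unadjusted p under 0.05 there were 5 (11.4%, against 13.2% of all genes), and 18 of 44 were positive, against 51.7% of all. Col5a1, a chain of the type V fibrils that nucleate type I fibrils, averaged 20.8 ± 2.44 CPM in 12 males and 17.3 ± 2.19 CPM in 11 females (SD; log2 fold change 0.26 ± 0.07, edgeR adjusted p = 0.106). The 12 males ran from 17.8 to 25.1 CPM and the 11 females from 14.7 to 21.4 CPM, so the ranges overlapped. Col4a4 (0.25, edgeR adjusted p = 0.158) was next, with 3.09 ± 0.493 CPM in males and 2.57 ± 0.205 CPM in females. Col26a1 (-0.17, 0.176) had 8.06 ± 0.963 CPM in males and 9.06 ± 0.913 CPM in females.

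In the fit of 23 cords 2 collagen genes were called for a paclitaxel response that differed between the sexes. This contrast sets the same cords apart as library numbers 1 to 12 against 13 to 24, so the 2 cannot be told apart. The sex by treatment interaction, the male response minus the female, called Col11a1 and Col19a1 and no other, 4.55% of the 44 beside 4.96% of all genes (1259 of 25372), so the share was near the background. Both were lower, as were 2.24% of all genes, and 19 of 44 were positive, against 49.3% of all. Col11a1 had 103, 119 and 130 CPM in knockout male paclitaxel cords, against 117, 118 and 141 CPM in knockout male vehicle cords. In wild-type males it had 95.9, 97.9 and 119 CPM under paclitaxel, against 106, 110 and 117 CPM under vehicle. In knockout females it had 112, 117 and 131 CPM under paclitaxel, against 88.1, 103 and 109 CPM under vehicle, and in wild-type females 119 and 135 CPM under paclitaxel, against 85.9, 91.0 and 103 CPM under vehicle. Every female paclitaxel cord thus lay above every female vehicle cord, while the male ranges overlapped. The log2 interaction was -0.44, with an SE of 0.11 and an edgeR adjusted p of 0.0333.

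Col19a1, a FACIT chain made by some neurons, had 9.34, 9.53 and 10.4 CPM in knockout male paclitaxel cords, against 9.43, 11.4 and 13.2 CPM in knockout male vehicle cords. Wild-type males had 6.80, 8.03 and 9.59 CPM under paclitaxel, against 8.96, 9.24 and 9.81 CPM under vehicle. Knockout females had 9.64, 9.75 and 10.5 CPM under paclitaxel, against 7.98, 10.2 and 10.9 CPM under vehicle, and wild-type females had 12.1 and 12.2 CPM under paclitaxel, against 8.24, 9.01 and 10.1 CPM under vehicle. Only the wild-type females were separated, and the share of all genes that separate there was not counted. The interaction was -0.44 ± 0.12 (SE, edgeR adjusted p = 0.0387).

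Neither call was stable to leaving out 1 cord. Col11a1 lost it without any of 11 of the 23 cords (edgeR adjusted p = 0.0513 to 0.0825), with an interaction of -0.50 to -0.40 over all 23 fits. Those 11 were knockout female paclitaxel replicate 2, knockout female vehicle replicates 1 and 3, knockout male paclitaxel replicate 3, knockout male vehicle replicate 3, both wild-type female paclitaxel cords, wild-type female vehicle replicates 1 and 2, wild-type male paclitaxel replicate 1 and wild-type male vehicle replicate 3. Col19a1 kept it in only 6 fits, those without knockout female paclitaxel replicate 1, knockout female vehicle replicate 2, knockout male paclitaxel replicate 2, knockout male vehicle replicate 1, wild-type female vehicle replicate 3 or wild-type male paclitaxel replicate 3 (edgeR adjusted p = 0.00901 to 0.0492). In the 17 other fits its adjusted p was 0.05 to 0.0927. With library 23 in the fit edgeR called no gene of any kind. On the 23 cords without it, DESeq2 called 6 collagen genes among 2376 genes (9.36%).

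The other fibrillar chains are given as values. Of the 11, 8 had a negative interaction, and 7 of the 11 had an unadjusted p under 0.05, while over all 44 there were 13 (29.5%, against 20.3% of all genes), 10 negative and 3 positive. The 3 fibrillar chains with a positive one were Col1a1 (0.33, edgeR adjusted p = 0.13), Col1a2 (0.34, 0.208) and Col3a1 (0.23, 0.701). Col24a1 (-0.50, 0.0995), Col5a2 (-0.46, 0.15) and Col27a1 (-0.29, 0.098) were among the negative ones. Col23a1, a transmembrane chain, had the third smallest p (0.41 ± 0.13, 0.069).

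Within each sex, comparisons added after the data were seen, no collagen gene was called by edgeR. In each sex the treatments lay in different sets of library numbers, so treatment cannot be told apart from library number here. In females this stood beside 1 of 25372 genes (0.00394%), and in males beside 1698 (6.69%). Positive fold changes were seen for 31 collagen genes in females, against 50.7% of all genes, and for 24 in males, against 51.4%. DESeq2 called Col11a1, Col4a2 and Col2a1 in females, among 55 genes (0.217%), and Col23a1 in males, among 2592 (10.2%). In females 13 collagen genes had an unadjusted p under 0.05, all higher under paclitaxel (29.5%, against 9.37% of all genes). Col2a1 averaged 7.16 ± 0.595 CPM in 5 female paclitaxel cords and 5.67 ± 0.844 CPM in 6 female vehicle cords (SD; log2 fold change 0.36, edgeR adjusted p = 0.224). Col4a2 averaged 73.2 ± 9.18 CPM under paclitaxel and 58.5 ± 5.82 CPM under vehicle (0.30, 0.234). Col11a1 averaged 123 ± 9.74 CPM under paclitaxel and 96.8 ± 9.62 CPM under vehicle (0.35, 0.24). Only Col11a1 had no overlap between the female groups, as did 0.946% of all genes. In males there were 3 such genes (6.82%, against 20.9% of all): Col23a1 averaged 32.1 ± 4.34 CPM in 6 paclitaxel cords and 27.1 ± 1.55 CPM in 6 vehicle cords (0.24, edgeR adjusted p = 0.108). Col19a1 averaged 8.95 ± 1.31 CPM under paclitaxel and 10.3 ± 1.64 CPM under vehicle (-0.21, 0.151), and Col1a1 15 ± 1.47 CPM under paclitaxel and 12.96 ± 1.201 CPM under vehicle (0.21, 0.162).

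The endothelial markers stood apart in males, with sums of 425 to 474 CPM in 6 paclitaxel cords and 297 to 408 CPM in 6 vehicle cords. These groups also lie in different sets of library numbers, so treatment cannot be told apart from library number. Of the 12, 5 were called higher, beside 6.69% of all genes called in males, among them the tight junction gene Cldn5 (38.1 ± 5.38 CPM under paclitaxel and 23.4 ± 5.19 CPM under vehicle, log2 fold change 0.72, edgeR adjusted p = 0.00615) and Pecam1 (0.44, 0.0421). In females the sums overlapped, at 363 to 570 CPM under paclitaxel and 393 to 470 CPM under vehicle. Of the fibroblast markers none was called in either sex, and of the mural markers Pdgfrb was called in males (0.32, 0.0249). In males the basement membrane chains Col4a1 (0.15, edgeR adjusted p = 0.308) and Col4a2 (0.09, 0.476) did not pass. The skeletal muscle markers summed to 9.81 to 53.7 CPM in male paclitaxel cords and 8.07 to 14.6 CPM in male vehicle cords, and all 11 had a positive sex by treatment interaction (median 2.68), with Acta1 and Actn3 called, beside 4.96% of all genes. The part of any of these markers in the collagen values was not tested.

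Genes that process, bind or remove collagen are counted over lists. Over all cords none was called for paclitaxel in 20 genes of collagen folding and modification, 14 of propeptide cleavage and crosslinking, 15 laminins, nidogens and basement membrane proteoglycans, 14 genes of fibril-associated matrix, 9 collagen receptors, 13 genes of collagen breakdown and 12 of TGF-beta signalling. In the first 6 of these lists the smallest adjusted p belonged to P3h3 (0.332), Loxl1 (0.282), Lama1 (0.672), Lum (0.581), Itga10 (0.434) and Mmp14 (0.164). In males 9 genes of these lists were called for paclitaxel, 7 higher and 2 lower, beside 6.69% of all genes. They were 1 of 20 folding genes, 2 of 14 cleavage and crosslinking genes, 2 of 9 receptors and 2 of 13 breakdown genes. Of 12 TGF-beta genes 1 was higher and 1 lower, and of the 15 laminin list genes and 14 fibril-associated genes 0 were called. The crosslinking oxidases Loxl2 (log2 fold change 0.46, edgeR adjusted p = 0.0253) and Loxl1 (0.45, 0.0439) were higher under paclitaxel. So were the collagenase Mmp14 (26.1 ± 2.97 CPM under paclitaxel and 19.1 ± 2.87 CPM under vehicle, 0.45, 0.0164) and the gelatinase Mmp9 (0.29, 0.0209). The collagen receptors Adgrg1 (0.30, 0.0216) and Ddr1 (0.16, 0.0438) and the ligand Tgfb2 (0.21, 0.032) were also higher. Plod2, a lysyl hydroxylase (-0.17, 0.0344), and the receptor Tgfbr1 (-0.19, 0.0333) were lower. As elsewhere within a sex, treatment here cannot be told apart from library number.

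The same lists held 9 genes called for the sex by treatment interaction, beside 4.96% of all genes. Of 20 folding genes 1 was positive and 3 were negative. The rest were 1 of 14 cleavage and crosslinking genes, 1 of 15 laminin list genes, 1 of 14 fibril-associated genes, 1 of 9 receptors and 1 of 12 TGF-beta genes. Of 13 breakdown genes 0 were called. Of the folding genes, the peptidyl-prolyl isomerase Ppib (-0.21, edgeR adjusted p = 0.0258), Plod2 (-0.26, 0.0296) and P3h3 (-0.26, 0.0445) had a negative interaction and P4hb, a subunit of prolyl 4-hydroxylase, a positive one (0.23, 0.0365). Bmp1, the procollagen C-proteinase, was negative (-0.25, 0.0361), as was the collagen receptor integrin Itga10 (-0.49, 0.0424). Lamc3, a laminin chain (0.53, 0.0333), Fbln1, a fibulin (0.47, 0.0385), and Tgfb2 (0.39, 0.0169) were positive.

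Knockout was set against wild-type to see whether loss of Chrna7 in myeloid cells goes with collagen expression. Over all cords no collagen gene was called, by edgeR, among 3 of 25372 genes (0.0118%), and DESeq2 called 5 genes (0.0197%), none of them collagen. At an unadjusted p under 0.05 there were 2 (4.55%), against 3.36% of all genes. Col17a1, a transmembrane chain of hemidesmosomes, had 0.189 to 0.660 CPM (median 0.311) in 12 knockout cords, against 0.168 to 0.279 CPM (median 0.246) in 11 wild-type cords. Its log2 fold change was 0.56 ± 0.19 (SE, edgeR adjusted p = 1), from 16 to 58 counts per cord, and the 2 highest cords were knockout female paclitaxel replicates 1 and 3. Col4a2 averaged 66.7 ± 8.77 CPM in knockout cords and 60.3 ± 5.76 CPM in wild-type cords (0.13 ± 0.05, edgeR adjusted p = 1), and Col15a1 17.3 ± 1.68 CPM in knockout cords and 16.02 ± 1.58 CPM in wild-type cords (0.10, adjusted p = 1). Knockout and wild-type ranges overlapped for all 3.

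Of the 44 genes, 33 had a positive knockout fold change (median 0.04), against 49.5% of all genes. Col1a1 averaged 14.4 ± 1.94 CPM in knockout cords and 14.7 ± 1.93 CPM in wild-type ones, Col1a2 36.2 ± 3.68 CPM in knockout cords and 38 ± 6.37 CPM in wild-type ones, and Col3a1 13.8 ± 2.58 CPM in knockout cords and 13.6 ± 3.41 CPM in wild-type ones. Col4a1 averaged 46.4 ± 7.21 CPM in knockout cords and 43.01 ± 3.46 CPM in wild-type ones, and Col6a1 34.8 ± 3.01 CPM in knockout cords and 33.96 ± 5.36 CPM in wild-type ones. All 5 overlapped widely, with an edgeR adjusted p of 1 each.

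Under vehicle alone no collagen gene was called by edgeR, among 2 genes (0.00788%), or by DESeq2, among 4 (0.0158%). Under paclitaxel alone none was called by edgeR, among 1 gene (0.00394%), or by DESeq2, among 3 (0.0118%). Positive fold changes were seen for 29 collagen genes under vehicle, against 51.3% of all genes, and for 28 under paclitaxel, against 49%. Under vehicle Col19a1 (log2 fold change 0.18), Col9a2 (0.13) and Col14a1 (-0.24) had the smallest p (edgeR adjusted p = 0.911 each). Under paclitaxel they were Col17a1 (0.70, 0.79), Col9a2 (-0.13, 0.804) and Col4a2 (0.14, 0.81). Each comparison had 2 collagen genes at an unadjusted p (4.55%), against 5.2% of all genes under vehicle and 6.18% under paclitaxel. The accompanying lists held no called gene in the knockout comparisons.

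Library 23 differed from the 23 cords in the make-up of its collagens. Values here are CPM from library totals, and 1 library allows no test. In it 24 collagen genes lay above all 23 cords, 13 below all and 7 within, beside 25.3% of all tested genes above and 33.6% below. Collagen took 0.159% of its counts. Fibrillar chains held 46.5% of its summed CPM per kilobase, FACIT chains 14.4% and type IV chains 9.86%, all outside the ranges of the cords. In summed CPM per kilobase its fibrillar chains had 98.7, and its type IV chains 20.9, a level between the lowest (16.6) and highest (26.2) cord. Its fibrillar to type IV ratio was 4.72.

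**Figure D4:**
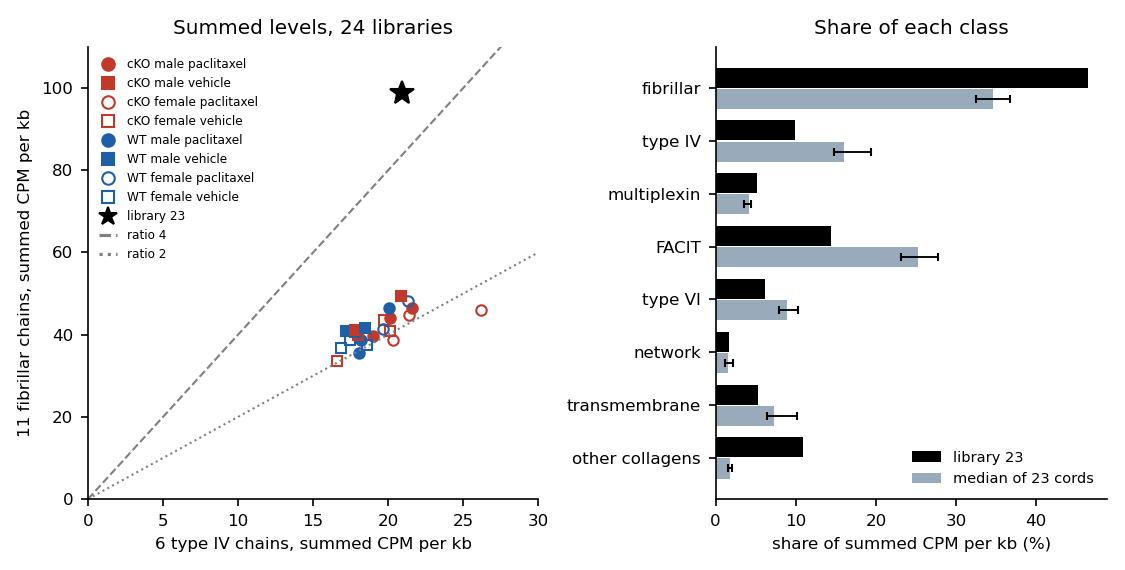
Left, summed CPM per kilobase of 11 fibrillar against 6 type IV chains in 24 libraries, from library totals; the star is library 23, at a ratio of 4.72, and the cords lie near 2. Right, the share of each class in library 23 (black) and the median of 23 cords (grey, bars from lowest to highest cord), with fibrillar chains at 46.5% in library 23 and 34.6% in the cords.

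Col28a1, a von Willebrand factor domain collagen of peripheral nerve, had 102 CPM in library 23, against 0.630 to 2.44 CPM in the cords, 64.5 times their median. Col5a3, a type V chain, had 262 CPM against 23.1 to 43.95 CPM (8.45 times). Col14a1 (5.22 times), Col3a1 (4.89), Col24a1 (4.72), Col1a2 (3.41) and Col1a1 (2.71) were also above every cord. Of the type IV chains, Col4a4 (3.10 times), Col4a3 (2.73) and Col4a1 (1.73) were above every cord, Col4a2 (0.882) was within, and Col4a5 (0.312) and Col4a6 (0.198) were below. Col9a1 (0.102 times), Col6a6 (0.155), Col9a3 (0.174) and Col11a2 (0.182) were lowest relative to the cords. Col11a2, the second highest collagen per kilobase in the cords, had 13.7 CPM in library 23 against 58.8 to 88.1 CPM.

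**Figure D5:**
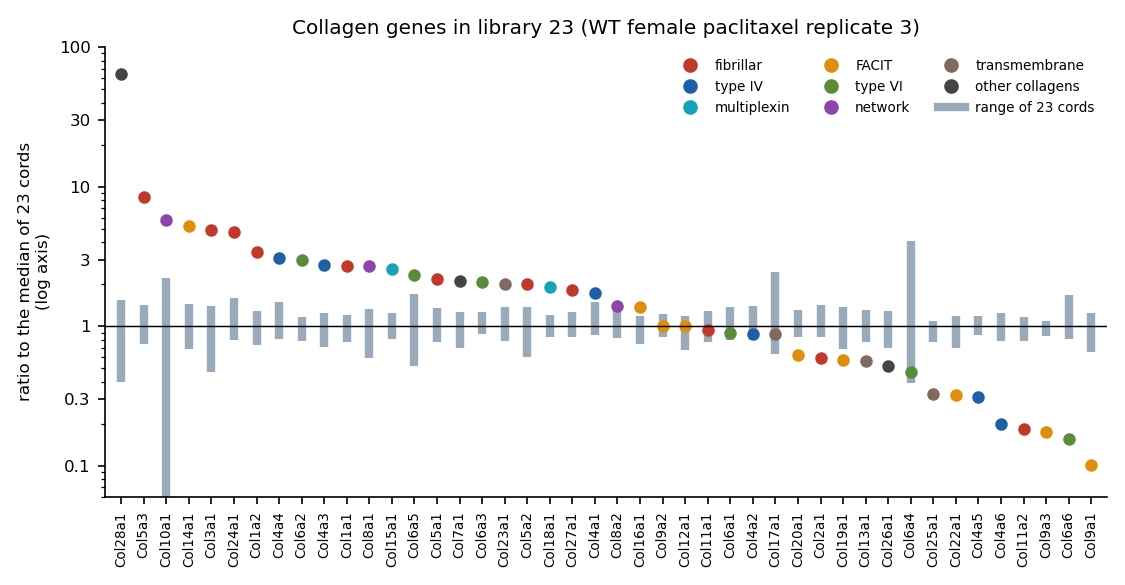
Level of each collagen gene in library 23 as a ratio to the median of 23 cords on a log axis, coloured by class, with grey bars for the range of the cords; the bar of Col10a1 runs off the axis because 1 cord is at 0. Col28a1 is at 64.5 and Col9a1 at 0.102.

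Marker sums moved with these values. In library 23 the 10 Schwann cell markers summed to 2769 CPM, against 364 to 655 CPM in the cords, the 11 ganglion neuron markers to 5626 against 97.5 to 157 CPM, and the 15 fibroblast markers to 1010 against 131 to 290 CPM. Most of the fibroblast sum was Dcn (592 CPM) and Ogn (210.2 CPM); 9 of the 15 lay above every cord, and Aldh1a2, Bmp6 and Igf2 lay below every cord. The 11 skeletal muscle markers summed to 589 CPM against 7.91 to 53.7 CPM, the 12 endothelial markers to 220 against 297 to 570 CPM, the 12 cartilage and bone markers to 47.3 against 46.4 to 61.9 CPM, the 12 mural markers to 321 against 298 to 432 CPM, and the 13 spinal cord markers to 5247 against 28180 to 33160 CPM. All 11 ganglion markers and 8 of 10 Schwann markers lay above every cord. The Schwann list genes Gjb1 (16.7 CPM against 66.9 to 91.5) and Pllp (8.78 CPM against 17.1 to 29.3) lay below every cord. Of the cartilage and bone markers, 3 lay above every cord (Comp, Cnmd and Ibsp). Acan, Dmp1, Sp7, Alpl, Matn1 and Matn3 lay below every cord. The part of all these markers in the collagen values was not tested.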

How the data were processed

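Counts per gene were deposited by the authors as 1 table of whole numbers, without normalization. Per the file headers, featureCounts 1.6.2 summed exons of Ensembl release 96 (GRCm38) by gene name, with no strand or read-pair option, and no option to count reads in more than 1 gene. STAR did the alignment, per the submitters' processing notes. Genes of 1 to 20 counts were odd in 34.4 to 37.3% of cases, so mates were taken as counted singly. Antisense and overlapping genes cannot be told apart. The overlap is 0.295% of the exon bases of Col4a1, 0.982% of Col4a2 and at most 6.07% (Col9a3) of any collagen gene.

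In R 4.3.3, edgeR 4.0.16 (quasi-likelihood, robust, TMM, filterByExpr) fitted the means of 8 groups on 23 libraries, with Benjamini-Hochberg adjustment over 25372 genes. A gene was called at an adjusted p under 0.05. DESeq2 1.42.0 was an alternative. On simulated counts for paclitaxel against vehicle over all cords (25372 genes), the fit recovered 86% of genes changed 1.25-fold and 100% of those changed 1.5-fold, and for the sex by treatment interaction 8% and 76%. The simulated spread was set by a formula of each gene's mean and was not taken from the cords. Only genes of at least 1 CPM were changed, so these shares need not hold for the real cords. SD is over mice, 1 library each. SE is the size of the log2 fold change divided by the square root of the edgeR F statistic. It thus draws on the spread of the whole fit and not only of the groups printed beside it. Counts of replicates differed by a chi-square of at least 8.99 per degree of freedom, so none was a repeat. Library 23 was left out of tests. Named were 6 fixed chains (Col1a1, Col1a2, Col3a1, Col4a1, Col4a2, Col6a1), every called gene, the 3 smallest p per comparison, the 3 highest and 3 lowest per kilobase, and the 10 genes most like Col1a1 and Col4a1; others named were chosen after their values were seen. Members, lists and comparisons were chosen with earlier results of these data known, and paclitaxel within each sex was added after seeing the data. Promoters are from RefSeq (GRCm38.p6). No promoter window was found for Col1a1, Col2a1, Col4a3, Col5a2, Col9a3, Col12a1, Col14a1, Col22a1 and Col26a1. Alternatives tried were all 24 libraries, no filter, DESeq2, its size factors, a replicate block, only the libraries compared and leaving out each library.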

Additional observations from a re-analysis of the deposited data

Results flagged for a closer look

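In groups of 5 or 6 cords of 1 genotype and treatment, 13 of 176 groups of a collagen gene (7.39%) had a cord whose gap to the next was more than 0.71 of the whole range (5 cords) or 0.625 (6 cords). Chance flags about 1 in 20.

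Knockout female paclitaxel replicate 3 was low in both type I chains, with 11.76 CPM of Col1a1 beside 14.9 to 16.4 CPM and 32.14 CPM of Col1a2 beside 37.4 to 39.4 CPM in the other 5. Knockout female paclitaxel replicate 1 was high in Col4a1, at 66.17 CPM beside 43.5 to 50.0 CPM. Wild-type female vehicle replicate 1 was high in Col23a1 (38.59 CPM, others 26.3 to 28.8), Col28a1 (2.46 CPM, others 1.24 to 1.603) and Col8a2 (6.483 CPM, others 4.48 to 5.11). Col6a4 was high in knockout male paclitaxel replicate 2 (5.781 CPM, others 0.559 to 1.37) and knockout male vehicle replicate 3 (5.275 CPM, others 1.17 to 2.62), and Col24a1 was high in that male vehicle cord (28.4 CPM, others 15.7 to 19.5). Among wild-type paclitaxel cords, Col16a1 was low in male replicate 1 (76.15 CPM, others 95.0 to 100.4), Col25a1 low in male replicate 2 (35.03 CPM, others 44.1 to 46.2), Col20a1 high in female replicate 2 (5.693 CPM, others 4.16 to 4.41) and Col4a5 high in female replicate 1 (20.94 CPM, others 18.1 to 18.3).

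The paclitaxel response was called as different between males and females for Col11a1 (male minus female -0.44 on the log2 scale, edgeR adjusted p = 0.0333) and Col19a1 (-0.44, 0.0387). This difference cannot be told apart from library numbers 1 to 12 against 13 to 24. The calls were 2 of 44 collagen genes, beside 4.96% of all genes. Leaving out 1 cord lost the call in 11 of 23 fits for Col11a1 and in 17 for Col19a1. In library 23, outside the comparisons, 24 collagen genes lay above the highest vehicle cord. The share of all genes above that cord was not counted. Above all 23 cords lay 24 collagen genes and 25.3% of all tested genes.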

How the results depend on the processing

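With DESeq2's size factors in edgeR no count of called collagen genes moved. In the labels, same-numbered samples share only a number. Their deviations had a median r of 0.01 over 77 pairs, 24 of them over 0.1. Pairs of other numbers had a median r of -0.01 over 154 pairs, 25 of them over 0.1. Whether same-numbered cords share more than a number was not tested. With the replicate block 4 collagen genes were called for sex by treatment and 2, Col11a1 and Col4a2, for paclitaxel in females, and the other counts stayed 0. DESeq2 called 2 for paclitaxel over all cords, 3 in females and 1 in males, beside 0.658, 0.217 and 10.2% of all genes. It called 1 for males against females and 6 for sex by treatment, beside 2.3 and 9.36% of all genes. With only the libraries compared 1 collagen gene was called for paclitaxel in males. For the replicate block and the libraries compared, the share of all genes called is not given here. Over 24 libraries sex by treatment had 0.

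Without the filter on low counts the counts were 5 for paclitaxel over all cords, 4 in wild-type, 3 in knockout, 4 in males and 11 in females, 1 for knockout over all cords, 1 under paclitaxel, 2 for genotype by treatment, 4 for males against females and 13 for sex by treatment. Calls rose over all genes too, to 366 for genotype by treatment, 99 for knockout over all cords and 215 under paclitaxel. With the filter these were 0, 3 and 1. For the other comparisons the share of all genes called is not given here. In the fit without the filter, of 41809 genes, the median prior degrees of freedom of the collagen genes were infinite, against 11.8 with it. The cause of the difference was not tested.

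Leaving out 1 cord at a time gave 0 to 5 collagen genes for sex by treatment, 0 to 1 for males against females and 0 to 1 for paclitaxel in males, and 0 for every other comparison.

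Over 24 libraries, with library 23, some signs turned: Col1a2 (0.21) and Col3a1 (0.22) for paclitaxel, Col15a1 (-0.0545) and Col3a1 (-0.29) for knockout, and Col3a1 (-0.20) and Col23a1 (-0.00086) for genotype by treatment. No value of these was called. Without 1 cord the knockout value of Col1a1 ran from -0.0471 to 0.00922, Col3a1 from -0.0236 to 0.108 and Col6a1 from -0.00981 to 0.0576, and the paclitaxel value of Col1a2 from -0.0867 to 0.00338.

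Over 24 libraries r was -0.0448 for Col9a2 and Col9a3, 0.81 for Col4a3 and Col4a4, 0.88 for Col4a5 and Col4a6 and 0.64 for Col5a1 and Col5a2, the last 3 now past the threshold. For Col4a1 and Col4a2 r was 0.474, against 0.808 without that library, and for Col6a1 and Col6a2 0.0905, against 0.439. With group means removed r was -0.10 for Col4a5 and Col4a6, 0.59 for Col5a1 and Col5a2, 0.57 for Col6a1 and Col6a2 and 0.54 for Col6a1 and Col6a3; with CPM from totals it was 0.50 for Col6a1 and Col6a2. Without 1 cord r ran from -0.028 to 0.145 for Col4a5 and Col4a6, 0.30 to 0.49 for Col4a3 and Col4a4, 0.17 to 0.50 for Col5a1 and Col5a2, 0.36 to 0.55 for Col6a1 and Col6a2 and 0.45 to 0.60 for Col8a1 and Col8a2. The cause of these shifts was not tested.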
